A study of Homo sapiens with 12 samples.

Results

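The regions described here carried acetylated H2A.Z (H2A.Zac) in K562 cells and were compared between a line with WT EP400 and a line with EP400 that cannot hold TRRAP (ΔTRRAP). Every region of the 3 deposited H2A.Zac lists was taken, which gave 94586 regions of the 158028 listed for both marks. K562 is a human chronic myeloid leukemia line with erythroid and megakaryocytic features. In both lines endogenous EP400 carried a dTAG tag and was degraded with 500 nM dTAGV-1 for 24 h, while WT EP400, or EP400 without its SANT and hydrophobic domains, was expressed from the AAVS1 safe harbor, and each line was 1 clone. H2A.Zac was profiled by chromatin immunoprecipitation and sequencing in 2 biological replicates per line, beside 2 replicates of total H2A.Z and 2 of input chromatin per line, 12 libraries in all. The replicates had been merged before the lines were compared, so a region has a single value, a log10 likelihood ratio between the lines. It grows with depth as well as with the difference, and it is not a fold change. How it goes with the width of a region was not tested. The lists hold no value per replicate and no read count, so neither a spread between replicates nor a test between the lines can be given, the depth of the libraries is unknown, and the Wilson 95% confidence intervals given for shares cover counting error only. With 1 clone per line, the effect of the deletion and other differences between the clones cannot be told apart.

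H2A.Z is a histone variant that replaces H2A in nucleosomes beside active promoters and at enhancers, and its acetylated form marks the active sites among them. The TIP60 complex both exchanges H2A for H2A.Z, through the EP400 motor, and acetylates histones, through the KAT5 subunit. TRRAP is the large subunit that transcription factors such as MYC, E2F and p53 contact, and it is shared with the SAGA acetyltransferase complex. A region is called lost when it was higher in WT, gained when it was higher in ΔTRRAP, and unchanged otherwise. Lost regions made up 25.9% of the H2A.Zac regions and gained regions 26.3%. The labelled cell type was checked against marker genes. Of 16 erythroid and megakaryocytic K562 markers, 14 had an H2A.Zac region within 1 kb of the transcription start site (TSS), against 6 of 13 markers of other blood cells and 1 of 10 markers of other tissues. Over all protein-coding genes the share was 62.2% (12472 of 20046). The K562 markers without a region were the erythroid genes GATA1 and ALAS2.

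Away from promoters, the sequence of 6 bases with the lowest share of gained sites was the E-box CACGTG, a palindrome that the basic helix-loop-helix factors MYC-MAX, USF and the MITF and TFE family bind. The 3 intronic or intergenic lost regions with the highest likelihood ratios among those with this E-box in their central 200 bp are given as 60 bases of hg38 with the E-box in capitals. They were chosen after the values were seen. The site near ADGRD1 is at chr12:130920389-130920448, the site near SMIM30 at chr7:113152773-113152832, and the site in an intron of FGFR4 at chr5:177089486-177089545, all read on the plus strand.
ADGRD1: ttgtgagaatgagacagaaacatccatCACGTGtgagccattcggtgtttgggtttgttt
SMIM30: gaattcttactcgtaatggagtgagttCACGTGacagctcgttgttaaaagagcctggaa
FGFR4: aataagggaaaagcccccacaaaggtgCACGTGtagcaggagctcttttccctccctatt

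Gained sites away from promoters more often held the GATA motif AGATAA, the core bound by GATA1 and GATA2 in blood cells. Of the gained regions chosen in the same way, 2 show it in capitals. They lie at chr18:11780502-11780561 in an intron of GNAL with CHMP1B as the nearest protein-coding TSS and at chr5:173455278-173455337 between genes near STC2, both on the plus strand.
CHMP1B: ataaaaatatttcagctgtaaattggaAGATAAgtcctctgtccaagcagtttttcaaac
STC2: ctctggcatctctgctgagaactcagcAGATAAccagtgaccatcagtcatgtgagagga

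A lost and a gained promoter are shown because the changed region covered the whole of the printed 250 bases upstream of the RefSeq start (GRCh38.p14). The MCTS2 promoter at chr20:31547129-31547378 (plus strand) has the ETS motif CCGGAAG and the CCAAT motif in capitals, both on the minus strand. The DTNA promoter at chr18:34493062-34493311 (plus strand) has the GC box GGGCGG in capitals. The 250 bases upstream of the start were searched on both strands in 35116 RefSeq promoters. Of these, 8.52% held this ETS motif, 32.0% the CCAAT motif, 42.6% this GC box, 6.34% the E-box and 9.17% the GATA motif.
MCTS2: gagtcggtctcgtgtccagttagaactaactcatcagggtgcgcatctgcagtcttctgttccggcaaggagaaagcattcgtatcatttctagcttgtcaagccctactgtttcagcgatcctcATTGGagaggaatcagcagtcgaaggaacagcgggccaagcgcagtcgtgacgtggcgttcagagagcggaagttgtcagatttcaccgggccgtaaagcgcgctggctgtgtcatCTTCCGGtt
DTNA: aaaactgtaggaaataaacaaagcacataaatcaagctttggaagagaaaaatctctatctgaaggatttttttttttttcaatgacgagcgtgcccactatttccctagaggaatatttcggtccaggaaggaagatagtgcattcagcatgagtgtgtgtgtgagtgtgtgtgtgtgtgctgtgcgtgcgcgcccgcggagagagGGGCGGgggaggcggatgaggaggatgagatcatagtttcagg

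The balance of lost and gained H2A.Zac differed by place in the genome, from mostly gained at promoters to mostly lost between genes. A region was placed at a promoter when it overlapped 1 kb to either side of a GENCODE TSS, and otherwise by its midpoint. At promoters 9404 regions were gained and 5303 lost, so that 63.9% of the changed regions were gained (63.2 to 64.7%). Introns were near balance, with 9187 gained and 8823 lost (51.0% gained, 50.3 to 51.7%). Between genes 4913 were gained and 8909 lost (35.5% gained, 34.8 to 36.3%). The share of regions that changed at all ran the other way, from 46.0% at promoters to 54.6% in introns and 56.5% between genes. The order of the gained shares, promoter above intron above intergenic, held on 23 of the 23 chromosomes with at least 20 changed regions in each place. Chromosomes 20 and 19 were lowest in both promoters (35.2 and 50.6% gained) and intergenic regions (16.5 and 15.0%), and whether the number of chromosome copies differs between the clones was not tested. Without them the gained shares were 65.8% at promoters, 52.2% in introns and 37.0% between genes. Total H2A.Z followed the same order at a lower level, with 59.2% gained at promoters, 42.4% in introns and 27.4% between genes, and fewer of its regions changed (24.99% of those at promoters).

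**Figure D1:**
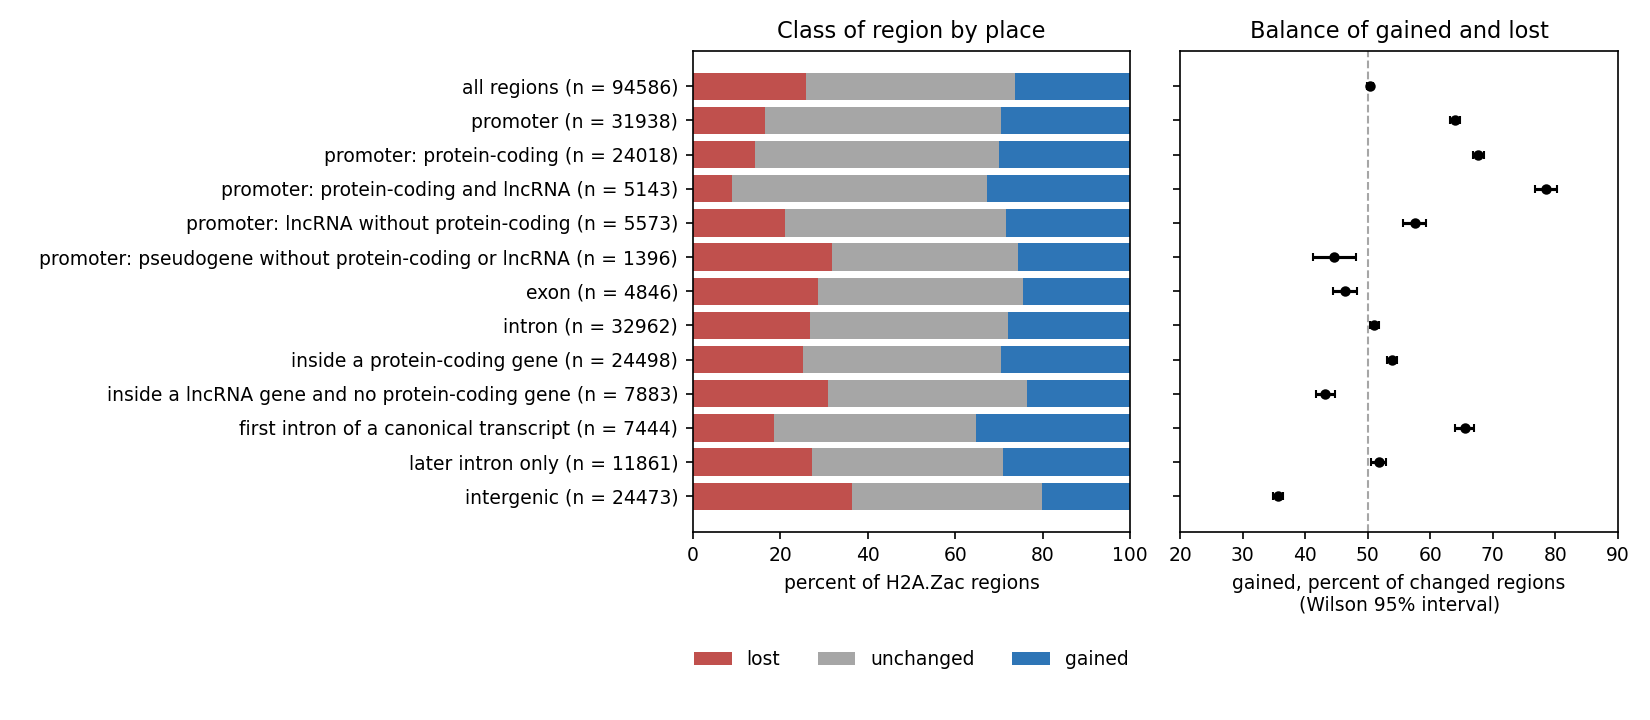
H2A.Zac regions by place: the left panel plots the percent of regions that were lost, unchanged or gained in ΔTRRAP (bars, regions counted in parentheses), and the right panel plots the gained regions as a percent of the changed ones (points, with Wilson 95% intervals and a dashed line at 50%). Promoters shared by protein-coding and lncRNA genes are farthest to the gained side at 78.5%, and intergenic regions farthest to the lost side at 35.5%.

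Among promoters the balance differed by kind of gene. Promoters of protein-coding genes had 67.7% of their changed regions gained (66.8 to 68.6%). Where a region overlapped the windows of both a protein-coding and a lncRNA TSS, the share was 78.5% (76.8 to 80.2%). It was 57.5% (55.7 to 59.4%) at lncRNA promoters away from protein-coding ones and 44.6% (41.2 to 48.0%) at pseudogene promoters, where lost regions were the more frequent. Exons away from promoters were split as well. In coding exons 36.6% of the changed regions were gained (32.9 to 40.3%), in untranslated exon parts 55.9% (52.8 to 59.0%) and in exons of non-coding genes 43.2% (40.1 to 46.3%).

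Counted by gene, 12472 of 20046 protein-coding genes had an H2A.Zac region in the TSS window. Of these, 6095 had a gained and no lost region (48.9%), 2525 a lost and no gained region (20.2%), 851 both, and 3001 unchanged regions alone. Unchanged regions lay close to most changed ones. An unchanged region lay in the same window in 90.4% of the gained and 73.6% of the lost promoters. The genes of lncRNAs were near protein-coding genes in this, with 46.9% gained and 22.6% lost of 5637 with a region. Pseudogenes divided evenly, with 34.3% gained and 34.3% lost of 1442. Of the short RNA genes, snoRNA genes, which mostly sit in introns of host genes, were gained in 57.8% and lost in 12.1% of 116, miRNA genes were gained in 54.4% and lost in 17.8% of 331, and the genes of spliceosomal and related snRNAs were gained in 32.5% and lost in 31.4% of 191. These counts include regions that also lie at the TSS of another gene. Regions at short RNA genes and at no protein-coding, lncRNA or pseudogene TSS were near balance. Of these, 222 were gained and 195 lost (53.2% gained, 48.4 to 58.0%).

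The balance also differed by side of the TSS. For regions whose midpoint lay within 0.5 kb downstream of a protein-coding TSS, 81.0% of the changed regions were gained (79.6 to 82.3%). The share was 77.2% from 0.5 to 1 kb downstream, 70.1% from 1 to 2 kb, 60.9% from 2 to 3 kb and 51.6% from 3 to 5 kb. Upstream it was lower, at 69.9% within 0.5 kb, 39.7% from 0.5 to 1 kb and 27.03% (24.7 to 29.5%) from 1 to 2 kb, and from 2 to 10 kb upstream it was between 29.6 and 30.6%. From 0.5 to 3 kb, then, a changed region on the transcribed side was mostly gained and an upstream one mostly lost. Counted by base, gained regions covered most TSSs at 350 bp downstream (19.6% of 20033 TSSs), lost regions at position -600 (6.78%), and unchanged regions at the TSS itself (38.5%).

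**Figure D2:**
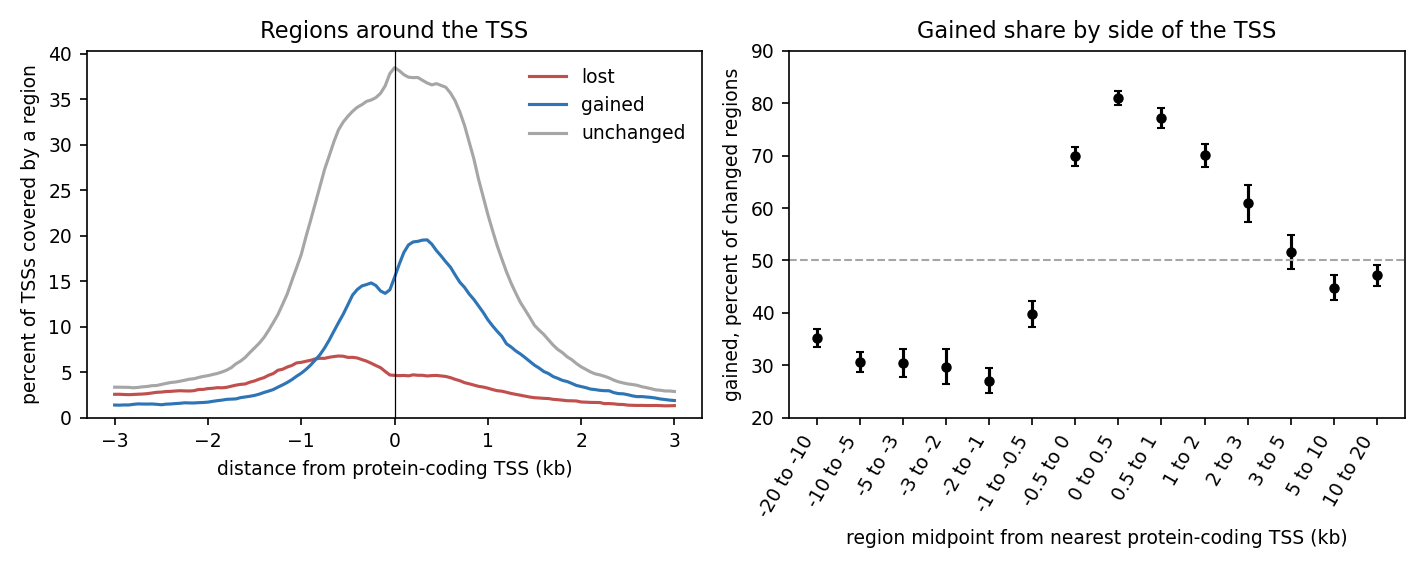
H2A.Zac around protein-coding TSSs: the left panel plots the percent of TSSs covered by lost, gained and unchanged regions against the distance from the TSS in kb, with transcription to the right. The right panel plots the gained share of changed regions by the signed distance of the region midpoint, with Wilson 95% intervals, and rises from 27.03% at -2 to -1 kb to 81.0% at 0 to 0.5 kb.

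First and later introns differed in their gained shares. Changed regions in the first intron of the canonical transcript of a protein-coding gene were gained in 65.5% of cases (2622 gained and 1381 lost, 64.0 to 67.0%). In later introns the share was 51.7% (50.5 to 52.9%). Distance was taken to the nearest TSS of any gene type, on either side. By this measure intronic regions showed no lean to gain at the closest distance. Their gained share was 50.9% at 1 to 5 kb (49.5 to 52.4%), 46.96% at 5 to 10 kb, 51.9% at 10 to 50 kb, 56.3% at 50 to 100 kb and 45.7% beyond 100 kb. Downstream of protein-coding TSSs, by contrast, changed regions of all places were gained in 70.1% at 1 to 2 kb and 60.9% at 2 to 3 kb. Introns of protein-coding genes had 53.9% gained (53.04 to 54.7%) and introns of lncRNA genes outside protein-coding genes 43.2% (41.7 to 44.7%). Intergenic regions leaned most to loss close to genes. Their gained share was 29.4% at 1 to 5 kb from the nearest TSS, 32.2% at 5 to 10 kb, 37.5% at 10 to 50 kb, 41.9% at 50 to 100 kb and 52.2% beyond 100 kb, where 628 changed regions were counted.

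The gained excess at promoters came from regions with low likelihood ratios. At ratios from 3 to 5, 72.7% of the changed promoter regions were gained, from 5 to 10 it was 67.3%, from 10 to 20 it was 47.7% and from 20 to 50 it was 38.0%. With a ratio of at least 10, 46.0% of the changed promoter regions and 45.2% of the changed intronic regions were gained, so lost regions were the more frequent in both, and 1028 protein-coding genes had a gained and 1054 a lost region at the TSS. Above 50 the direction turned again, with 39 gained and 26 lost promoter regions, and the counts were small. Intergenic regions stayed on the lost side up to a ratio of 50, with gained shares from 30.2 to 40.9%.

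**Figure D3:**
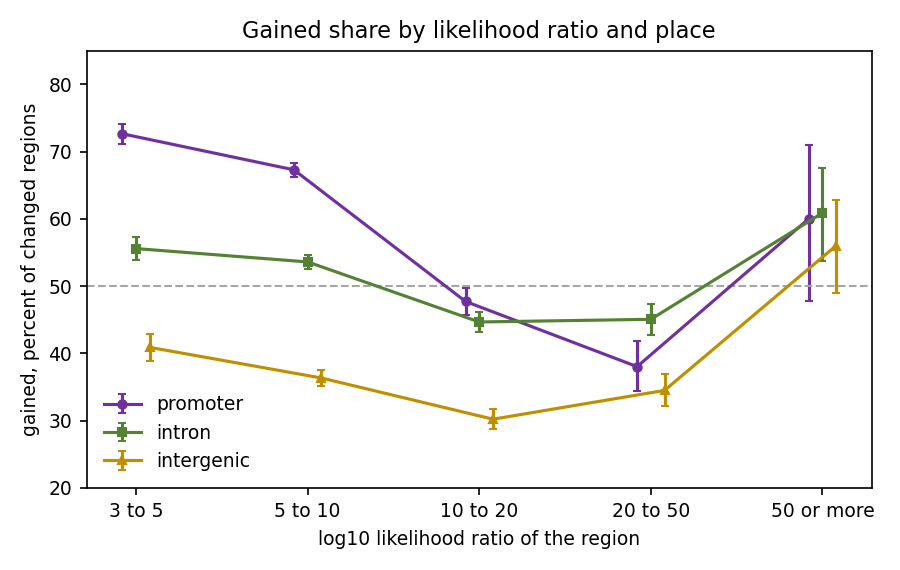
Gained share of the changed H2A.Zac regions (percent, with Wilson 95% intervals) by class of log10 likelihood ratio, for promoters, introns and intergenic regions. Promoter regions go from 72.7% gained at ratios of 3 to 5 to 38.0% at 20 to 50, and the 3 places meet above 50.

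Median GC content differed between lost and gained sites, in opposite ways at promoters and away from them. In the central 200 bp of promoter regions the median GC content was 54.0% in lost and 57.5% in both gained and unchanged regions. The median ratio of observed to expected CpG was 0.418 in lost, 0.639 in gained and 0.627 in unchanged promoter regions, and 26.0, 47.3 and 46.4% of them had at least 50% GC and a ratio of at least 0.6, the composition of a CpG island. In all 3 measures gained and unchanged promoter regions were close to each other and lost ones stood apart. Away from promoters the median GC content was 50% in lost, 46.5% in gained and 49.0% in unchanged regions, while the share with the composition of a CpG island was 8.38% in lost, 9.496% in gained and 12.8% in unchanged regions, with unchanged ones standing apart from both.

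The E-box CACGTG, searched in the central 200 bp, was found in 6.18% (5.85 to 6.53%) of the lost regions away from promoters, 3.77% (3.56 to 4.004%) of the unchanged and 1.69% (1.501 to 1.91%) of the gained ones. Put the other way, 18.0% (16.1 to 20.04%) of the 1441 changed regions with an E-box were gained, against 45.6% (45.1 to 46.1%) of the 32963 without. Of 1935 sequences of 6 bases that were found in at least 500 changed regions, counted together with their reverse complements, CACGTG had the lowest gained share. The sequences ranked after it, ACGTGC and ACGTGG, overlap it. E-boxes in lost regions gathered at the middle of the region, with 0.342 per kb at the centre, 0.118 at 1 kb before it and 0.138 at 1 kb after it. Unchanged regions had a lower peak, with 0.205 per kb at the centre, 0.120 before and 0.121 after it, and gained regions had none, with 0.0948 per kb at the centre, 0.116 before and 0.123 after it.

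**Figure D4:**
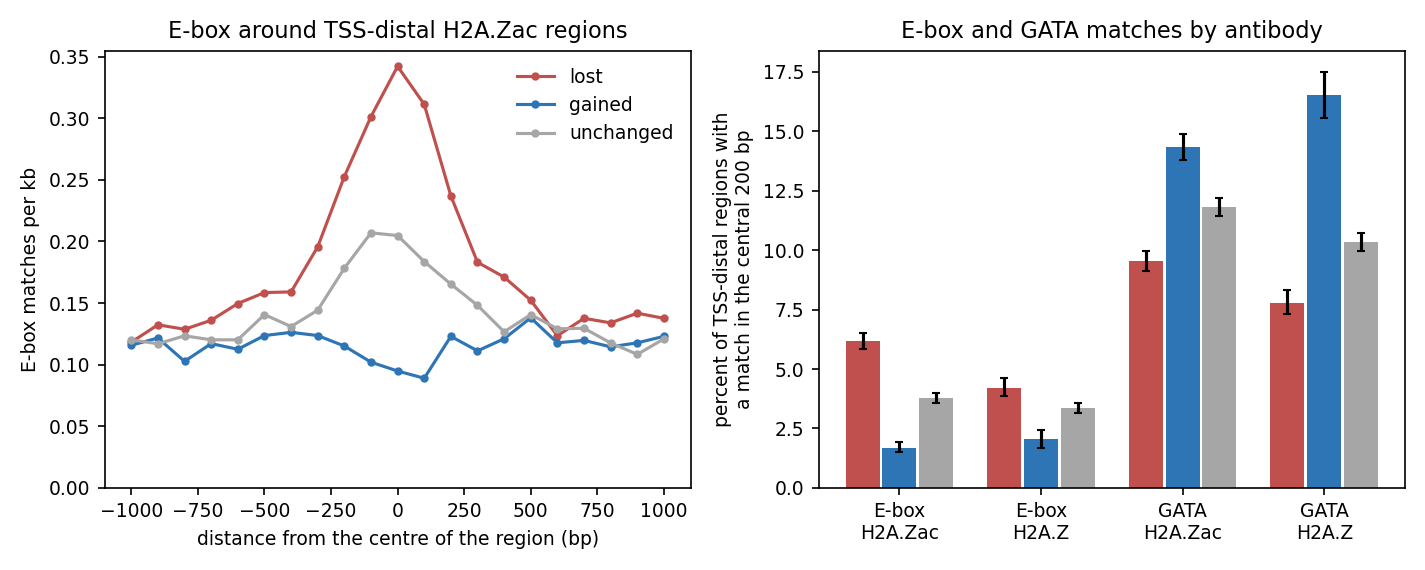
E-box and GATA motif at regions away from promoters: the left panel plots E-box matches per kb against the distance from the centre of lost, gained and unchanged H2A.Zac regions, with 0.342 at the centre of lost regions. The right panel plots the percent of lost, gained and unchanged regions (same colors) with a match in the central 200 bp, for H2A.Zac and total H2A.Z, with Wilson 95% intervals.

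The difference was present on every chromosome with enough regions and in every class of base composition. The gained share was lower with an E-box than without on 23 of the 23 chromosomes with at least 10 changed regions that held one, and the share with an E-box ran from 2.86% on chromosome 14 to 28.3% on chromosome 4. Among regions of under 45% GC it was 23.9% with and 54.4% without, from 45 to 55% GC 18.2 and 41.7%, and above 55% GC 15.2 and 38.9%. Introns (21.3 and 52.2%) and intergenic regions (14.7 and 36.5%) both showed it. It was as large where total H2A.Z was called unchanged under the region (20.9% with and 49.8% without) and where no H2A.Z region lay under it (18.8 and 48.6%). At promoters the gap was smaller, with 45.3% gained among 528 changed regions with an E-box and 64.6% among those without. In total H2A.Z away from promoters the E-box was found in 4.22% of lost, 3.36% of unchanged and 2.04% of gained regions.

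The middle bases and the flanks of the E-box went with different shares. Of the 10 forms of CANNTG, the gained share away from promoters was 18.0% for CACGTG and 33.5% for CACATG, which MITF factors also bind, and between 40.01 and 46.9% for the other 8, among them CAGCTG at 43.5%. With the flanks of CCACGTGG it was 12.6% (247 changed regions), and CCACGTGC was at 12.2% (270). TCACGTGA, the core of the element through which TFEB and its relatives act on lysosomal genes, was at 44.8% (58 changed regions), and at promoters it was on the gained side, in 38 gained and 4 lost regions (90.5% gained, 77.9 to 96.2%). These forms were singled out after their values were seen, and TCACGTGA rests on few regions.

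The GATA motif went the other way. It was found in 9.54% of the lost, 11.8% of the unchanged and 14.3% of the gained regions away from promoters, and 54.6% (53.02 to 56.1%) of the 4014 changed regions with it were gained, against 43.1% without. The sequences of 6 bases with the highest gained shares in these regions were GATATC at 56.4%, CTTATC at 56.1% and GATAAC at 55.3%, and most of the leading ones contain GATA or its complement. The gap was smallest among AT-rich regions, which hold most of the matches. Under 45% GC the gained share was 57.1% with the motif (2343 changed regions) and 52.995% without, from 45 to 55% GC 51.8 and 39.4%, and above 55% GC 47.4 and 37.02%. At a likelihood ratio of at least 10 the share with the GATA motif was 48.8%, beside 39.4% for all changed regions away from promoters, unplaced and alternate contigs included. At promoters it made little difference, with 62.9% gained with it and 64.0% without. In total H2A.Z the contrast was wider, with the motif in 7.80% of lost and 16.5% of gained regions.

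Of the other motifs, the AP-1 site TGANTCA, bound by FOS and JUN factors, was in 6.22% of lost and 9.73% of gained regions away from promoters, and the STAT site TTCNNNGAA in 5.39 and 7.44%. The RUNX site TGTGGTT differed little (3.60 and 3.77%). At promoters, 4 of the motifs were less frequent in lost than in gained regions, with intervals that did not overlap. The GC box GGGCGG, bound by SP and KLF factors, was in 20.4% of lost and 32.8% of gained regions, the ETS site CCGGAAG in 2.39 and 4.97%, the YY1 site AANATGGCG in 0.622 and 1.70%, and the cyclic AMP response element TGACGTCA in 0.0943 and 0.457%. Unchanged promoter regions were close to gained ones for these 4, at 31.9, 4.76, 1.70 and 0.540%. The CCAAT box was alike in lost and gained promoter regions, at 18.6 and 17.6%. The E2F site TTTCGCGC was in 0.170 and 0.255% and the NRF1 site GCGCATGC in 0.566 and 0.893%. All motifs were searched on both strands, and a match is not evidence of binding.

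Gene families leaned to one or the other direction, and are read against the 48.9% gained and 20.2% lost over all protein-coding genes with a region at the TSS. At ratios of at least 10 these genes were near balance, with a gained region at 1028 and a lost one at 1054, and list counts at that ratio are read against this. The replication-dependent histone genes, which supply the canonical histones of S phase, were furthest to the gained side. Of 51 with a region, 46 were gained (90.2%) and 0 lost, and 2 held both. Among them H2BC8 and H2AC8 had a ratio of 28.6, from the same region, and H2AC7 and H3C4 one of 17.2. Since these genes stand close together and share regions, they are not separate observations. The list of H2A.Z genes, exchange factors and erasers, which also holds other H2A variants, had 7 gained, 0 lost and 1 with both of 9. Of the 7, 2 were such variants, MACROH2A1 at 9.95 among them, and H2AZ1 at 10.5 and H2AZ2 at 8.28 both had gained total H2A.Z.

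**Figure D5:**
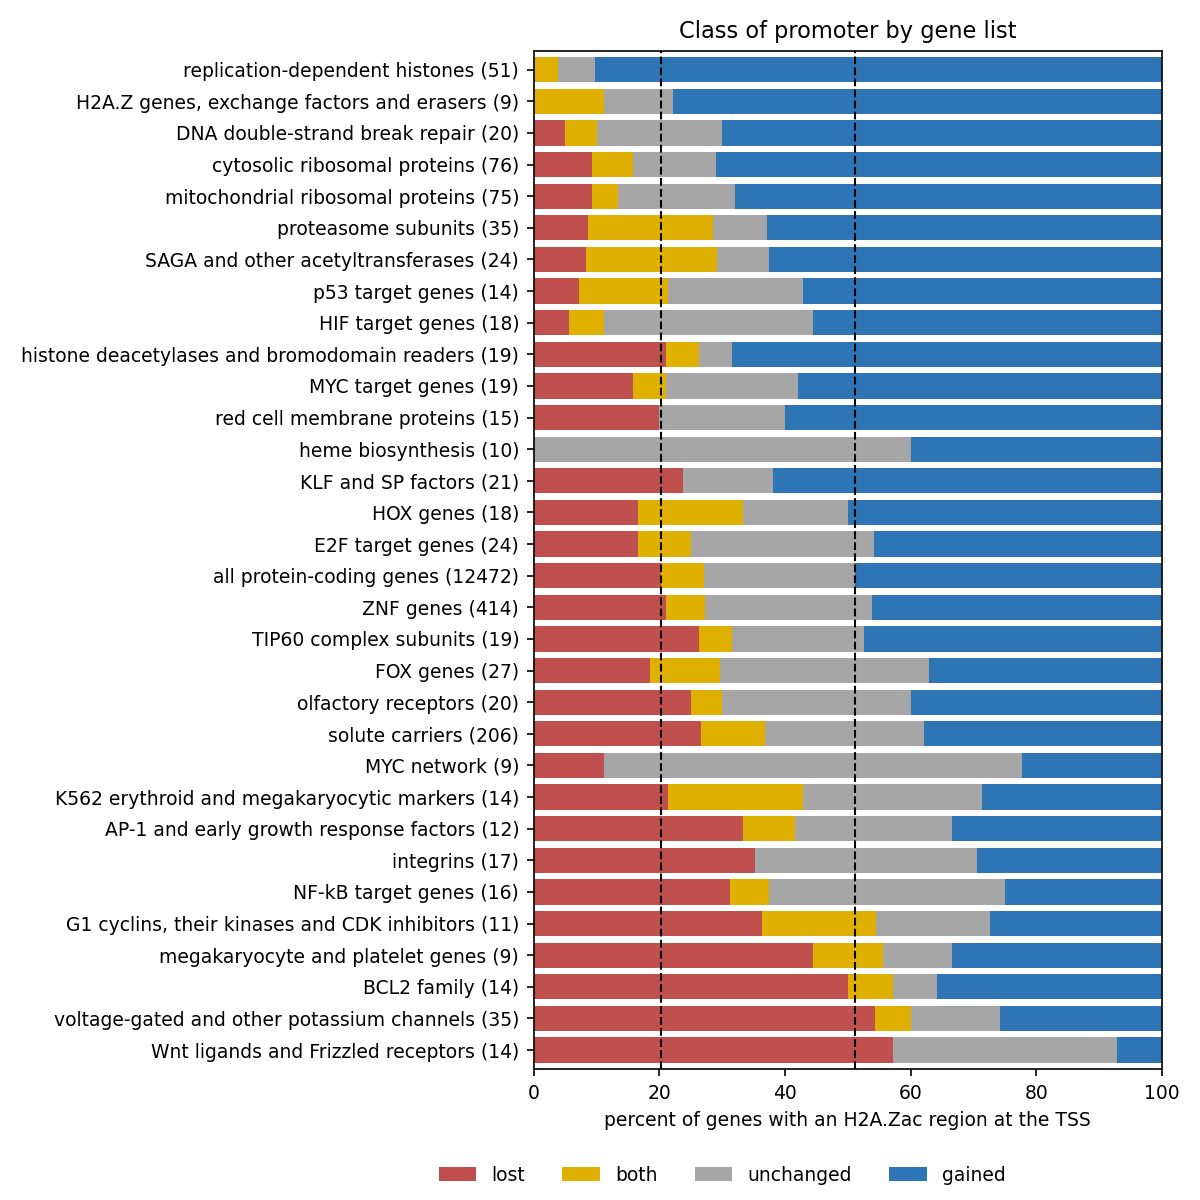
Promoter classes of 31 gene lists with at least 9 genes that had an H2A.Zac region at the TSS, and of all protein-coding genes: the bars give the percent of those genes (counted in parentheses) that were lost, both, unchanged or gained, and the dashed lines mark all genes (20.2% lost, and 48.9% gained read from the right). Replication-dependent histones are at the gained end and Wnt ligands with Frizzled receptors at the lost end.

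The genes of the protein synthesis and turnover machinery also lay above the background. Cytosolic ribosomal proteins had 54 gained and 7 lost of 76 (71.1 and 9.21%), with RPL23 at 18.8 and RPL24 at 12.5 among the gained, and RPL22, whose promoter was lost, at 13.4. Mitochondrial ribosomal proteins had 51 gained and 7 lost of 75, led by MRPL22 at 20.3 and MRPS18B at 18.6. Proteasome subunits had 22 gained, 3 lost and 7 with both of 35, and 2 gained and 2 lost at ratios of at least 10. The 3 lost ones were PSMB8 and PSMB9, the immunoproteasome subunits (10.7 each, from the same region, so not separate observations), and PSMD9 (8.62).

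Repair, acetyltransferase and deacetylase lists had gained shares above the background, with little of the lead left at ratios of at least 10. At that ratio repair genes had a gained region at 1 promoter and a lost one at 0. The acetyltransferase list had these at 2 and 1 promoters, and the list of deacetylases and readers at 3 and 2. DNA double-strand break repair genes had 14 gained and 1 lost of 20, among them BRCA1 at 10.7, its partner BARD1 at 9.04 and the break sensor NBN at 7.99, while XRCC5, the large Ku subunit, was lost at 4.96. The acetyltransferase genes, those of SAGA included, had 15 gained and 2 lost of 24. The 2 lost were KAT2B (6.88) and KAT2A (4.71), which encode the alternative catalytic subunits of SAGA. Deacetylases and bromodomain readers had 13 gained and 4 lost of 19 (68.4 and 21.1%), with a lost share near the background. HDAC3 (14.6) and SIRT1 (11.3) were gained and HDAC7 (13.9) and SIRT2 (11.4) lost. Subunits of TIP60 were close to the background, with 9 gained and 5 lost of 19. EP400 itself was gained at 11.2, and VPS72, the H2A.Z chaperone subunit, was lost at 5.54.

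Targets of transcription factors, among them those of factors known to contact TRRAP, are given by list. MYC targets had 11 gained and 3 lost of 19 (57.9 and 15.8%), and 2 gained and 2 lost at ratios of at least 10. LDHA, the lactate dehydrogenase subunit (17.4), and NPM1, nucleophosmin (12.3), were gained, while NCL, nucleolin (11.1), TERT, the catalytic subunit of telomerase (10.8), and SHMT2 (3.58) were lost. E2F targets had 11 gained and 4 lost of 24 (45.8 and 16.7%), near the background, with CDK1 (13.2) and RBL1 (11.5) lost, and with ratios of at least 10, where all genes were near balance, they stood at 1 gained and 2 lost. The p53 targets had 8 gained and 1 lost of 14, DDB2 (11.4) being the lost one, and they stood at 1 gained and 2 lost at ratios of at least 10, where a promoter that held both directions can count under the stronger one. Targets of the hypoxia factor HIF had 10 gained and 1 lost of 18, with NDRG1 (18.2), BNIP3L (13.5) and VEGFA (11.8) gained. NF-kB targets had 4 gained and 5 lost of 16 (25% gained and 31.2% lost), and 4 of each without chromosomes 19 and 20. Among them CCL2 (20.7) was gained and ICAM1 (23.4) and TNF (21.6) were lost. Total H2A.Z was gained in the TSS window of ICAM1 and lost in that of TNF. The MYC network itself had 2 gained and 1 lost of 9, and turned to 2 gained and 3 lost with a window of 2 kb.

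Lost promoters outnumbered gained ones in 8 of the 36 lists. Those of the Wnt family, potassium channels, the BCL2 family and integrins are described here, which is not a ranking. Wnt ligands and Frizzled receptors had 8 lost and 1 gained of 14 (57.1 and 7.14%), led by WNT5B at 33.8, FZD8 at 13.4 and FZD2 at 10.6, and FZD5 was the gained one at 4.77. Potassium channels had 19 lost and 9 gained of 35 (54.3 and 25.7%), with KCNG1 (29.8) and KCNS1 (28.9) on chromosome 20 and KCNT2 (29.0) on chromosome 1. Without chromosomes 19 and 20, where lost regions were the most frequent, 13 potassium channel promoters were lost and 8 gained. The BCL2 family had 7 lost and 5 gained of 14. HRK (55.9) and BID (16.5), which promote cell death, and BCL2L1 (16.3) and BCL2A1 (12.2), which block it, were lost, while BMF (18.1) and MCL1 (13.0) were gained, so both kinds occurred in both directions. Integrins had 6 lost and 5 gained of 17, with ITGB2 (35.6), the leukocyte integrin beta subunit, and ITGB1 (15.7) lost and ITGA3 (13.9) gained. The integrin list stood at 5 lost and 1 gained at ratios of at least 10, where all genes were near balance.

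Blood cell genes were mixed. The K562 markers had 4 gained, 3 lost and 3 with both of 14. The erythropoietin receptor EPOR (12.2) and the blood transcription factor TAL1 (7.28) were gained. BCR (8.85) and the alpha globin genes HBA1 (6.73) and HBA2 (4.58) were lost, and HBA1 and HBA2 also had lost total H2A.Z. Among the other globin genes of the list, HBG1 and HBZ were unchanged and HBG2 and HBE1 held both directions. Markers of other blood cells had 5 lost and 0 gained of 6, among them CD79A (42.9), a B cell receptor subunit. CD79A lies on chromosome 19, and no other marker of this list had a ratio of at least 10. Megakaryocyte and platelet genes had 4 lost and 3 gained of 9. ITGA2B (12.1), RUNX1 (11.3) and MEIS1 (10.7) were among the lost, and TUBB1 (8.70), GP6 (6.52) and GFI1B (6.08) were gained. The list stood at 4 lost, GP1BB with both directions among them, and 0 gained at ratios of at least 10, where all genes were near balance. Without chromosomes 19 and 20 the counts were 4 lost and 1 gained. Red cell membrane proteins had 9 gained and 3 lost of 15, and none in either direction at ratios of at least 10. Heme biosynthesis had 4 gained and 0 lost of 10, and 1 gained and 0 lost at ratios of at least 10. Its gained share of 40% was below the 48.9% over all protein-coding genes. Early response factors were split 4 to 4 of 12, with EGR1 (17.4) and JUND (12.4) gained and BATF (15.8) lost. G1 cyclins, their kinases and inhibitors had 3 gained and 4 lost of 11, and 3 of each without chromosomes 19 and 20. With ratios of at least 10 they stood at 0 gained and 2 lost.

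Among families of transcription factors, HOX genes were near the background with 9 gained and 3 lost of 18. FOX genes had 10 gained and 5 lost of 27 (FOXJ1 gained at 23.3), KLF and SP factors 13 and 5 of 21 (KLF12 gained at 22.5, SP9 lost at 17.7) and SOX genes 3 and 3 of 7 (SOX18 lost at 18.0). Zinc finger genes named ZNF had 191 gained and 87 lost of 414 (46.1 and 21.01%), near the background. Without chromosomes 19 and 20 they had 120 gained and 33 lost. Over all protein-coding genes in that setting, 6388 had a gained and 2800 a lost region, those with both counted in each. Solute carriers had 78 gained and 55 lost of 206, and 15 gained and 27 lost at ratios of at least 10, where all genes were near balance, with SLC29A3 and SLC38A1 (33.8 each) lost and SLC26A11 (30.5) gained. Few clustered protocadherins (3 gained and 1 lost of 8) and olfactory receptors (8 gained and 5 lost of 20) had a region at all, out of 53 and 400 genes. Of the DACH and EYA genes and their homeobox partners, 4 had a region, 2 of them gained and 1 lost.

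The lost promoters with the highest ratios belonged to genes of varied tissues. DDN, which encodes the neuronal protein dendrin, had the highest ratio, 129, at chr12:48998454-49000438, a region of 1985 bp that spans the TSS, and total H2A.Z was lost there as well (44.4). DLK1, an imprinted gene for a Notch pathway ligand, followed at 96.7 (chr14:100726204-100727613, beginning 499 bp downstream of the TSS in exon 1). KRT2, a skin keratin, was at 89.4 (chr12:52653039-52653582), with its region ending at position -828 from the TSS and further lost regions at 38.2 and 18.8 on either side. GATA5 (83.6) and MCTS2 (82.6) lie on chromosome 20. ELANE, the neutrophil elastase of myeloid granules, was at 68.5, and MFAP4 (70.03), the cytokine gene IL7 (59.6), HRK (55.9) and ADAMTSL1 (55.5) complete the 10. Total H2A.Z was lost under 7 of these 10 regions and not called under KRT2, MCTS2 and ADAMTSL1.

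Gained promoters were led by DTNA, which encodes the dystrophin-associated protein dystrobrevin alpha. Its region of 1682 bp at chr18:34493041-34494722 spans the TSS and had a ratio of 120, and a further gained region upstream had 98.8. ZNF608 was at 90.7 (chr5:124745880-124748315, exon 1) with a further gained region at 65.5 upstream of the TSS, and total H2A.Z was gained under both. ADA2, a secreted adenosine deaminase, was at 81.8 with no total H2A.Z region at the TSS. RIPOR2 (78.4), CD109 (71.8), GNG11 (70.02), ZDHHC21 (68.0) and ZNF829 (67.9), which shares its region with ZNF568, followed, with TAF11L3 (72.7) and TAF11L9 (71.4), members of 1 gene family whose reads may not be separable. Total H2A.Z was gained under 8 of the 10, and not called under ADA2 and CD109.

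Of the genes the study names, CCND1, the G1 cyclin D1, was lost at 38.3 over a region of 3386 bp that spans its TSS at chr11:69640106-69643491, and total H2A.Z was lost with it. TERT was lost at 10.8 (chr5:1294353-1295591), with no total H2A.Z region called under it. DACH1, a transcription cofactor, was gained at 53.7 over 4549 bp (chr13:71863584-71868132), and the intergenic gained region with the highest ratio, 126, lies 303 kb upstream of it. Among lncRNA promoters, ENSG00000225806 on chromosome 20 (120) and ITGB2-AS1 (70.3), the antisense neighbor of the lost ITGB2 promoter, were lost, as were ENSG00000253376 (58.5) and ENSG00000290054 (54.7). ENSG00000234710 (99.7), ENSG00000291024 (66.0), ENSG00000278254 (63.9) and ENSG00000233970 (58.7) were gained.

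In introns the lost regions with the highest ratios were in LRRC7, a postsynaptic scaffold gene (115, chr1:69822006-69823308), ANGPT1, an angiopoietin (84.4), L3MBTL1 on chromosome 20, where the region also falls in the overlapping gene ENSG00000288000 (83.5), and DOCK10 (77.9). Gained ones were in GNAL, a G protein alpha subunit (106), the cadherin CDH18 (88.9), the receptor gene CALCRL (87.0) and BCHE, butyrylcholinesterase (85.2). Intergenic losses were highest 242 kb from IRX1, a homeobox gene, where the ratio of 187.97 is the highest of all regions (chr5:3837441-3839548), and near PAPSS1 (109), ID1 (107) and FAM110B (102). Intergenic gains near DACH1 (126) were followed by regions far from the next protein-coding TSS, at 764 kb from SUCLG1 (122) and 749 kb from NDUFA4 (105), and by one near COX7C (108).

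Some genes held changed regions of a single direction along their length. COL25A1, a membrane collagen, held 21 lost and 0 gained regions, LRRC7 19 and 0, and the guidance cue SEMA3A 15 and 0, beside the readthrough records ENSG00000285382 (17) on chromosome 20 and ENSG00000268797 (15) on chromosome 19. FNDC3B and the X-linked FGF13 held 17 gained and 0 lost regions each, OSBPL3 and CPED1 14 each, and the polarity gene PARD3 13, although its TSS window held a lost region. Most genes were mixed. Of 1252 protein-coding genes with at least 5 changed regions, 917 (73.2%) had both lost and gained ones, 214 had gained ones alone and 121 lost ones alone. The widest region of all was a gained one of 22000 bp at chr5:173846503-173868502 between genes near CPEB4, a regulator of mRNA polyadenylation, with a gained region of 11126 bp beside it, while the widest lost region had 7745 bp.

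Total H2A.Z was often not called changed where its acetylated form was. Fewer total H2A.Z regions were called changed overall (34.0% against 52.1% of the H2A.Zac regions) and with lower ratios (a median of 5.95 against 8.27 in lost regions), so a missing call does not show that total H2A.Z stayed level. At promoters, total H2A.Z was lost under 29.7% (28.5 to 30.9%) of the lost H2A.Zac regions and unchanged under 54.4%, and it was gained under 19.5% (18.8 to 20.4%) of the gained and unchanged under 68.4%. In introns 25.3% of the lost regions lay on lost and 28.7% on unchanged H2A.Z, and 16.9% of the gained ones on gained and 28.5% on unchanged H2A.Z. Between genes the shares were 30.8 and 34.2% for lost, and 20.03 and 36.6% for gained regions. Opposite changes were rare, with 5 lost H2A.Zac regions on gained H2A.Z and 8 gained ones on lost H2A.Z in the whole genome. These counts are of overlapping regions, and a TSS window can still hold opposite calls of the marks, as at ICAM1. An H2A.Z region of any class lay under 77.3% of the gained promoter regions but under 40.4% of the gained intronic ones.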

How the data were processed

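H2A.Zac, total H2A.Z and input chromatin were sequenced as 12 libraries in 4 ChIP groups and 2 input groups of 2 replicates. Per the labels and the study's methods, the authors aligned paired-end reads to hg38 with Bowtie2 2.4.5, merged the replicates, called regions with MACS2 2.2.7.1 bdgdiff after scaling to the effective depth, and kept those with at least 25% of their length in reproducible peaks. The deposited score of a region is the authors' log10 likelihood ratio, at least 3 in the changed lists. The 94586 H2A.Zac regions were placed with GENCODE release 44, a later release than the study's, and total H2A.Z was counted where it covered at least 25% of a region. GC content and motifs were read from hg38 in the central 200 bp, and promoters from RefSeq. Shares have Wilson 95% intervals (scipy 1.17.1). The members and gene lists were chosen with earlier results of these data known, and the scan of sequences of 6 bases and E-box flanks was added after the motif shares had been seen.

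Genes were named by rule: in each direction the highest ratios among 10 protein-coding promoters, 4 lncRNA promoters, 5 intronic and 4 intergenic regions, the 5 genes with most regions of that direction alone, up to 4 members of a list, and CCND1, TERT and DACH1. Sequences of sites on chromosome 8 were not printed, and a few items that the rule names are not reported here. Exceptions are marked. Placement and overlaps were checked against bedtools 2.31.1 and on simulated regions. Python 3.11.15, numpy 2.4.6, pandas 2.3.3, pysam 0.24.0, matplotlib 3.10.9 and samtools 1.23.1 were used. Alternatives were higher ratio cutoffs, other TSS windows and annotations, chromosomes left out, wider regions, merged regions, base pairs and whole regions. Gene expression and repeats were not analysed here.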

Additional observations from a re-analysis of the deposited data

How the results depend on the processing

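No paired analysis was possible because the replicates were merged before the lists were made, and for the same reason no replicate could be left out. The share of soft-masked bases was not run, since the sequence used here has no masking. The gained share over all changed regions was 50.4% and moved to 48.3% with likelihood ratios of at least 5, 40.7% with at least 10, 51.8% without chromosomes 19 and 20, 48.7% for regions of at least 500 bp and 48.9% with regions of a class within 1 kb merged. The promoter share of 63.9% reversed to 46.0% at ratios of at least 10 and otherwise kept its direction, with 61.0% at 5, 65.8% without chromosomes 19 and 20, 62.4% from 500 bp, 62.9% in base pairs, 61.4% merged, 68.0 and 60.7% for windows of 0.5 and 2 kb, 62.3% with all transcripts, 67.7% with protein-coding genes and 65.2% where the window covered at least 25% of the region. Regions away from promoters, counted here with those on unplaced and alternate contigs, at 44.6%, moved to 43.4% at ratios of at least 5, 39.4% at 10, 46.0% without chromosomes 19 and 20, 43.3% from 500 bp, 45.8% in base pairs, 43.5% merged, 42.9% with all transcripts and 45.6% with protein-coding genes. The intronic share of 51.0% reversed to 49.97% (7325 gained, 7335 lost) at ratios of at least 5, 45.2% at 10, 49.1% merged and 49.7% with all transcripts, and moved to 52.2% without chromosomes 19 and 20, 53.1% in base pairs and 54.4% with protein-coding genes, so introns had no stable direction. The intergenic share of 35.5% stayed on the lost side, with 34.5% at ratios of at least 5, 32.3% at 10, 37.0% without chromosomes 19 and 20, 33.6% from 500 bp and 39.1% with protein-coding genes. Of 3376 protein-coding genes with a lost and 6946 with a gained region at the TSS, 1054 and 1028 were left at ratios of at least 10, and the other settings kept both counts within 1.5 times. More gained than lost promoters were found in 25 of 36 gene lists, 24 with a window of 2 kb, 18 at ratios of at least 10 and 24 without chromosomes 19 and 20. The difference of gained minus lost promoters reversed to -1 for the MYC network with a window of 2 kb, and at ratios of at least 10 to -1 for E2F targets, -1 for p53 targets and -12 for solute carriers. With whole regions in place of the central 200 bp, gained exceeded lost promoter regions in median GC content by 2.58 in place of 3.5 percentage points, the gained share of regions with an E-box away from promoters went from 18.0 to 26.0% and with the GATA motif from 54.6 to 51.8%, and at ratios of at least 10 the share with the GATA motif reversed to 48.8%, beside 39.4% for all regions away from promoters. These motif settings were chosen after seeing the data. Why the settings moved these values was not tested.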

Other observations

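On unplaced and alternate contigs, which are in none of the places above but are counted in the shares over all regions and in the 44.6% away from promoters, 150 H2A.Zac regions were gained, 65 lost and 152 unchanged (69.8% gained of the changed, 63.3 to 75.5%). The numbers in the region names run up to 48345 for lost, 45251 for gained and 60171 for unchanged H2A.Zac regions, so that 50.6, 54.9 and 75.2% of the numbered regions are in the lists. Of 94520 pairs of neighboring H2A.Zac regions, 26506 overlap and 46330 lie within 1 kb, and neighbors are therefore not independent counts.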
